A study of Mus musculus with 9 samples.

Results

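The genes described here are 55 genes for ribosome biogenesis and the nucleolus, of 20618 genes measured. They were taken by symbol from a list of nucleolar genes known as targets of the transcription factor MYC. All 55 were in the tables, and the list was chosen with earlier results of these data known. The libraries come from CD8+ T cells of wild type mice, lymphocytes that kill infected cells, which spent 24 h in 1 of 3 media. The first held 2 mM glucose, the second 2 mM inosine, and the third 2 mM inosine with hypoxanthine (called the hypoxanthine medium below). Inosine is a nucleoside made of the purine base hypoxanthine and ribose. The labels print the hypoxanthine dose as 100 M, so its unit is not settled here. Every medium held 10% dialyzed serum, and live cells, about 80% by the labels, were sorted before RNA extraction. Each medium had 3 libraries, and the labels do not say whether these came from separate animals or cultures, so p-values measure only the spread between libraries. The age of the mice and any activation of the cells are not given in the sources used here.

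Ribosomes are assembled in the nucleolus, where RNA polymerase I makes a long precursor RNA that is modified, cut and packed with ribosomal proteins. Small nucleolar ribonucleoproteins (snoRNPs) guide the modifications, the small-subunit processome and later factors build the 40S subunit, and another set of factors builds the 60S subunit. T cells raise this whole programme when they begin to grow and divide, and MYC, which binds the hexamer CACGTG (an E-box) with its partner MAX, is a known driver of it.

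The promoters of members are shown first because this hexamer is the site MYC is best known to bind. Promoter windows from 250 bases before to 50 after the annotated start, from RefSeq on GRCm38.p6, were matched for 49 of the 55 members. Both strands were searched for CACGTG, which reads the same on each, and 11 of the 49 members (22.4%) held it. The share was 8.1% of 27025 genes with a window. It was 12.3% of the 8066 of them whose mean reached 1 FPKM (fragments scaled for transcript length and library size). Counted by window instead of by gene, it was 20.8% of the members' 53 windows and 7.2% of all 32851. The 11 members were Ltv1, Nop2, Utp20, Grwd1, Pes1, Imp4, Wdr43, Utp18, Tsr1, Sdad1 and Mybbp1a. When the 1-letter variants CACGCG and CACATG were also counted, 30 of 49 members (61.2%) held a match. The share was 30.9% of all genes with a window and 37.3% of those whose mean reached 1 FPKM. A match describes the letters of the window and is no evidence of a bound factor. The 4 windows below belong to the members with a CACGTG and the smallest adjusted p for hypoxanthine against inosine. Each is printed in the direction of its gene, with the CACGTG in capitals.
Ltv1: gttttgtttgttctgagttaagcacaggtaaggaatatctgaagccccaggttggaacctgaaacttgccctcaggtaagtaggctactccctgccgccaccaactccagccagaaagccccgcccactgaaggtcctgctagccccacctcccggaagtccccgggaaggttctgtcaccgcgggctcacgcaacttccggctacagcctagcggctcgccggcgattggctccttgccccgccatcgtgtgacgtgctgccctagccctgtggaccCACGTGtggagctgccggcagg
Nop2: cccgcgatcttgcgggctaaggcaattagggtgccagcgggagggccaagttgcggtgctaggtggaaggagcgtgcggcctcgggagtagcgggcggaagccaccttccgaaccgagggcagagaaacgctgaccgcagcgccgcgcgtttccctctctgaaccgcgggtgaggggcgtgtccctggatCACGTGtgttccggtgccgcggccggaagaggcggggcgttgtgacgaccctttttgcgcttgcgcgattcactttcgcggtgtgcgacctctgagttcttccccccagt
Utp20: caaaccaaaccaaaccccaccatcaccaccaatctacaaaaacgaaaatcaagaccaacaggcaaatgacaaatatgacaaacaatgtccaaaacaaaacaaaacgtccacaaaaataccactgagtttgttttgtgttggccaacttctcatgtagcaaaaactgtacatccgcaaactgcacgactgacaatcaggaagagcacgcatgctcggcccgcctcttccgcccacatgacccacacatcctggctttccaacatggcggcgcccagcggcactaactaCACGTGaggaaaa
Grwd1: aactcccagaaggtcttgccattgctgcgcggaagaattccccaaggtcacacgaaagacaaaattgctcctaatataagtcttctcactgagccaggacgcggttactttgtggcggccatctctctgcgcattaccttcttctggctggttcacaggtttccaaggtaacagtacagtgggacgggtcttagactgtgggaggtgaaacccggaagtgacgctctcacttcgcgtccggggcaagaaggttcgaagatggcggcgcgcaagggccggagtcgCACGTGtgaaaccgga
The Ltv1 window lies at chr10:13193088-13193387 on the minus strand, with the first base of the hexamer 28 bases after the annotated start. The Nop2 window (chr6:125131633-125131932, plus strand) holds it 60 bases before the start. In the Utp20 window (chr10:88826765-88827064, minus strand) it begins 37 bases after the start. In the Grwd1 window (chr7:45830740-45831039, minus strand) it begins 34 bases after the start. All 4 hexamers lie near the start of their gene, 3 of them inside the transcribed part.

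The cells were checked against marker genes. The 6 CD8 T cell markers (Cd3d, Cd3e, Cd3g, Cd2, Cd8a and Cd8b1) summed to 680 to 733 FPKM in glucose, 622 to 830 with inosine and 1141 to 1226 with hypoxanthine. Of 26 measured markers of other cell types, 22 stayed under 1 FPKM in all 9 libraries, and none was at 0 in all of them. The others were Cd79b, Cd68, Xcr1 and Epcam, of which Cd68 reached the highest level, 3.81 FPKM. Some listed markers were not measured and are not counted. Those measured were 8 of 9 myeloid, 2 of 4 dendritic, 2 of 3 erythroid and 4 of 5 stromal or epithelial markers. Of the CD8 T cell markers, 5 of 6 were called higher with hypoxanthine against each other medium, and their part in the results below was not tested. Over all genes 11.7% were called higher against inosine and 10.8% against glucose (12.7% and 11.1% at 10 FPKM or more). Summed markers of B cells ran from 1.32 to 1.84 FPKM and those of myeloid cells from 2.61 to 4.35 over all libraries. Of the 26, Epcam was called higher and Ly6g lower with hypoxanthine than with inosine. Depth ran from 30857336 to 50107284 recovered reads per library. Mitochondrial genes took 6.5% of FPKM in inosine replicate 2 and 5.84% in hypoxanthine replicate 2, against 4.03% to 4.82% in the other 7 libraries.

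With hypoxanthine added to inosine, transcripts of ribosome assembly factors were lower as a group. Of the 55 members 45 fell, none rose, and 10 did not pass at an adjusted p under 0.05. Over all genes, 9.59% were called lower and 11.7% higher. Among the 4915 genes whose mean reached 10 FPKM, a level nearer to that of the members, 22.3% were lower and 12.7% higher. The median member difference was -0.46 on the log2(FPKM + 1) scale, from -0.81 (Rrp12) to 0.05 (Gar1), where the median of all genes was 0.002. In FPKM the median member was 28% lower. In 49 members all 3 hypoxanthine libraries lay below all 3 inosine libraries, which held for 15.6% of all genes and for 30.9% of those at 10 FPKM or more.

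Members together took 0.816% to 0.843% of all FPKM in the hypoxanthine libraries. With inosine they took 1.14% to 1.23%, and in glucose 1.1% to 1.16%, so the hypoxanthine libraries did not overlap with either. This sum weighs the member Npm1 most, whose mean over the libraries was 1562 FPKM, where that of the median member was 42.6. FPKM are relative to the library, and in bulk RNA fewer cells of a type and less RNA per cell cannot be told apart.

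**Figure D1:**
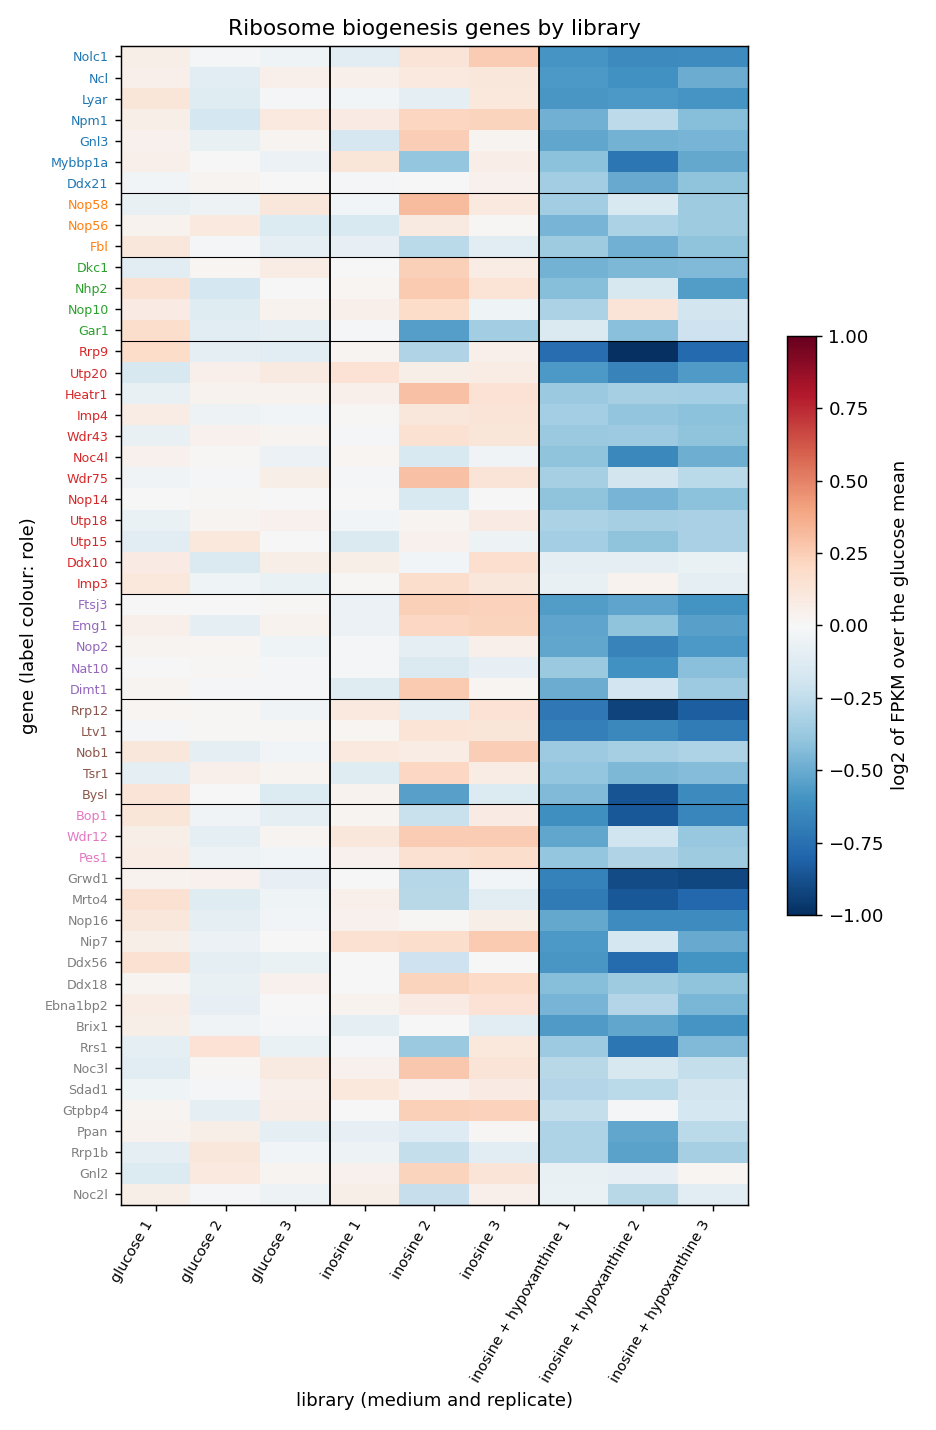
Level of each of the 55 members (rows, grouped by role) in each of the 9 libraries (columns), as log2 FPKM relative to the mean of the glucose libraries, with the colour scale ending at -1 and 1. The 3 hypoxanthine columns are lower than the others in most rows, and 45 members have all 3 hypoxanthine libraries under all 6 others.

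The heat map of members by library shows lower hypoxanthine columns in each role. Nucleolar scaffold and transcription-linked proteins organise the nucleolus and its chromatin, and 7 of 7 fell against inosine, with a median of -0.56. Npm1 encodes nucleophosmin, a nucleolar chaperone at chr11:33152498-33164142, and stood highest of all members per length. Npm1 stood at 1689, 1434 and 1736 FPKM in glucose, 1713, 1879 and 1891 with inosine and 1159, 1349.8 and 1208 with hypoxanthine. This was a log2 difference of -0.56 from inosine (SE 0.10, adjusted p = 0.0043). Nucleolin (Ncl, chr1:86344719-86359455) binds the precursor rRNA. Ncl stood at 271, 243 and 272 FPKM in glucose, 271, 281 and 284 with inosine and 176, 172 and 185 with hypoxanthine. Against inosine, Ncl differed by -0.65 (SE 0.07, adjusted p = 0.00039). Nolc1 encodes a chaperone of snoRNPs. Nolc1 stood at 88.4, 83.7 and 82.6 FPKM in glucose, 78.9, 93.0 and 101 with inosine and 56.4, 54.5 and 54.8 with hypoxanthine. Nolc1 had a log2 difference of -0.70 from inosine (SE 0.09, adjusted p = 0.00096). In each of these 3 genes the hypoxanthine libraries lay below both other media with no overlap. The other 4, Mybbp1a (a nucleolar Myb-binding protein), Gnl3 (nucleostemin, a nucleolar GTPase), Lyar (a nucleolar zinc-finger protein) and Ddx21 (an RNA helicase), fell by 0.42 to 0.57 on the log2 scale. Mybbp1a lost its call when any 1 of 8 libraries was left out, all but inosine replicate 2, with an adjusted p of up to 0.121.

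Core proteins of box C/D snoRNPs, which methylate the ribose of rRNA, fell in 2 of 3 cases, with a median of -0.36. Fibrillarin (Fbl, chr7:28168893-28179269) is their methyltransferase. Fbl stood at 281, 257 and 243 FPKM in glucose, 246, 216 and 241 with inosine and 204, 186 and 197 with hypoxanthine. The hypoxanthine libraries lay below the other 6, but the log2 difference from inosine of -0.26 (SE 0.08) did not pass (adjusted p = 0.0547). It passed in 7 of 18 alternative settings, with glucose replicate 1 or inosine replicate 2 left out among them, at an adjusted p of 0.0286 to 0.0496. Nop56 is a scaffold of the particle. Nop56 stood at 139, 145 and 124 FPKM in glucose, 123, 145 and 137 with inosine and 98.7, 109 and 107 with hypoxanthine. Nop56 fell by 0.36 on the log2 scale against inosine (SE 0.09, adjusted p = 0.0211). Nop58 is its partner. Nop58 stood at 111, 113 and 126 FPKM in glucose, 114, 145 and 124 with inosine and 91.5, 104 and 90.8 with hypoxanthine. This was a log2 difference of -0.41 from inosine (SE 0.10, adjusted p = 0.021). Both of these calls against inosine were lost when any 1 of several libraries was left out. The one of Nop56 was lost without hypoxanthine replicate 1 or 3 or inosine replicate 2 or 3 (adjusted p 0.0523 to 0.078 over the settings that ended it). That of Nop58 was lost without hypoxanthine replicate 1 or 3 or inosine replicate 3 (up to 0.0846 over the settings that ended it).

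Box H/ACA snoRNPs turn uridine into pseudouridine, and 2 of their 4 core proteins fell, with a median of -0.35. Dkc1 encodes dyskerin, the pseudouridine synthase. Dkc1 stood at 46.9, 51.1 and 53.2 FPKM in glucose, 50.2, 59.6 and 53.1 with inosine and 36.2, 36.9 and 37.1 with hypoxanthine. Against inosine, Dkc1 differed by -0.55 (SE 0.08, adjusted p = 0.00168). Nhp2 encodes an RNA-binding core protein. Nhp2 stood at 182, 145 and 164 FPKM in glucose, 166, 196 and 179.8 with inosine and 122, 146 and 111 with hypoxanthine. Nhp2 had a log2 difference of -0.52 from inosine (SE 0.12, adjusted p = 0.0174). The hypoxanthine libraries of Nhp2 lay below those of inosine and overlapped with glucose, and its call against inosine was lost without hypoxanthine replicate 1 or 3 or inosine replicate 3 (up to 0.0719). Gar1 (chr3:129824912-129831407) encodes a small core protein and showed the smallest difference of the 55. Gar1 stood at 80.4, 66.2 and 66.7 FPKM in glucose, 70.1, 48.7 and 56.0 with inosine and 64.4, 53.1 and 61.5 with hypoxanthine. Its hypoxanthine libraries lay within the range of the inosine libraries, with a log2 difference of 0.05 (SE 0.14, adjusted p = 0.875). Nop10, the other small core protein, differed by -0.18 (SE 0.12, adjusted p = 0.346). Whether Gar1 and Nop10 differ from Dkc1 in their response was not tested.

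The small-subunit processome is the large particle that folds and cuts the part of the precursor that becomes 18S rRNA, and 10 of its 12 members fell, with a median of -0.41. Utp20 encodes a large HEAT-repeat protein of this particle. Utp20 stood at 10.2, 11.8 and 12.1 FPKM in glucose, 12.5, 11.8 and 11.9 with inosine and 7.61, 7.12 and 7.66 with hypoxanthine. Utp20 fell by 0.63 on the log2 scale against inosine (SE 0.07, adjusted p = 0.0007). Imp4 encodes a protein that acts at the U3 snoRNA. Imp4 stood at 40.7, 37.3 and 37.8 FPKM in glucose, 38.9, 41.7 and 42.2 with inosine and 30.5, 29.4 and 29.0 with hypoxanthine. This was a log2 difference of -0.45 from inosine (SE 0.06, adjusted p = 0.00142). For both genes the 3 hypoxanthine libraries were the lowest of the 9. The other 8 that fell were Utp15, Utp18, Heatr1, Wdr43, Wdr75, Nop14, Noc4l and Rrp9, by 0.29 to 0.77. Rrp9, a protein of the U3 snoRNP, fell most. Utp15 lost its call without any 1 hypoxanthine library or without inosine replicate 2 or 3 (adjusted p up to 0.117), and Wdr75 without hypoxanthine replicate 1 (0.0521). Imp3, the partner of Imp4, differed by -0.14 (SE 0.07, adjusted p = 0.225). The helicase gene Ddx10 differed by -0.15 (SE 0.08, adjusted p = 0.234).

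Enzymes that modify rRNA at single bases or riboses all fell, 5 of 5, with a median of -0.55. Nop2 encodes a cytosine methyltransferase of the large-subunit rRNA and is 1 of the 4 genes whose promoter is printed above. Nop2 stood at 54.3, 54.0 and 52.0 FPKM in glucose, 52.6, 50.2 and 55.4 with inosine and 37.3, 33.7 and 36.0 with hypoxanthine. Against inosine, Nop2 differed by -0.55 (SE 0.07, adjusted p = 0.00066). Ftsj3 encodes a ribose methyltransferase that also acts in 60S assembly. Ftsj3 stood at 55.9, 55.7 and 56.4 FPKM in glucose, 53.8, 66.0 and 65.8 with inosine and 38.1, 38.9 and 37.0 with hypoxanthine. Ftsj3 had a log2 difference of -0.68 from inosine (SE 0.08, adjusted p = 0.00078). In both genes the hypoxanthine libraries lay below all 6 others, and those of glucose and inosine overlapped. Nat10, the acetyltransferase of 18S rRNA, and the methyltransferases Emg1 and Dimt1 fell by 0.37 to 0.61. Dimt1 lost its call without hypoxanthine replicate 1 or 3, glucose replicate 3 or inosine replicate 2 or 3 (adjusted p up to 0.113 over the settings that ended it).

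Factors that act later on the 40S precursor held both the smallest adjusted p and the largest difference of the members, and 4 of 5 fell. Ltv1 encodes a late 40S assembly factor, and its promoter is the first printed above. Ltv1 stood at 31.7, 32.3 and 32.4 FPKM in glucose, 32.5, 35.4 and 34.9 with inosine and 20.0, 20.6 and 19.8 with hypoxanthine. Ltv1 fell by 0.74 on the log2 scale against inosine (SE 0.06, adjusted p = 8.3e-05). The libraries of a medium lay close together in this gene. Rrp12 (chr19:41859483-41896153) encodes a HEAT-repeat protein that takes part in export of both subunits. Rrp12 stood at 19.2, 19.1 and 18.5 FPKM in glucose, 20.2, 17.7 and 20.9 with inosine and 11.6, 9.96 and 10.7 with hypoxanthine. This was a log2 difference of -0.81 from inosine (SE 0.08, adjusted p = 0.00027). In FPKM, Rrp12 was 45.3% lower than with inosine. Nob1, the nuclease that makes the last cut of 18S rRNA, and the GTPase-like factor Tsr1 both fell by 0.46. Bysl, a factor that clasps the 40S precursor, had overlapping libraries and a log2 difference of -0.41 (SE 0.15, adjusted p = 0.0929). It passed in 4 of 18 alternative settings, with inosine replicate 2 left out among them (0.018 to 0.0379).

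The PeBoW complex, formed by Pes1, Bop1 and Wdr12, is needed to process the precursor of the large-subunit rRNA, and 3 of 3 fell. Pes1 stood at 56.3, 51.5 and 52.5 FPKM in glucose, 55.2, 59.4 and 60.3 with inosine and 40.9, 43.3 and 41.7 with hypoxanthine. Against inosine, Pes1 differed by -0.46 (SE 0.06, adjusted p = 0.0014). Bop1 stood at 63.3, 56.7 and 54.2 FPKM in glucose, 59.3, 49.7 and 61.7 with inosine and 38.0, 32.2 and 36.9 with hypoxanthine. Bop1 had a log2 difference of -0.65 from inosine (SE 0.10, adjusted p = 0.00274). Wdr12 fell by 0.55. In all 3 genes the hypoxanthine libraries lay below every library of the other media.

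Of 16 factors of 60S assembly 12 fell, with a median of -0.43. Nop16 encodes a nucleolar protein of the 60S precursor. Nop16 stood at 51.4, 44.5 and 46.6 FPKM in glucose, 48.8, 47.9 and 49.3 with inosine and 33.3, 30.7 and 30.7 with hypoxanthine. Nop16 fell by 0.61 on the log2 scale against inosine (SE 0.07, adjusted p = 0.00057). Brix1 encodes a protein of the early 60S precursor. Brix1 stood at 34.7, 32.6 and 32.9 FPKM in glucose, 31.1, 33.3 and 30.9 with inosine and 22.5, 23.3 and 22.1 with hypoxanthine. This was a log2 difference of -0.47 from inosine (SE 0.06, adjusted p = 0.00096). In both genes the 3 hypoxanthine libraries were the lowest, while glucose and inosine overlapped. Grwd1, a chaperone of a 60S ribosomal protein and the fourth promoter above, fell most (-0.69), and Mrto4, which holds the place of the ribosomal stalk, fell by 0.65. Ebna1bp2, Noc3l, Ddx18, Ddx56, Ppan, Nip7, Sdad1 and Gtpbp4 fell by 0.29 to 0.59. Among these 12, the calls of Ppan and Gtpbp4 were the least stable. Ppan lost its call without any 1 library but inosine replicate 2 (adjusted p up to 0.128), Gtpbp4 without any glucose library, hypoxanthine replicate 1 or 3 or inosine replicate 2 or 3 (up to 0.153), and Noc3l without hypoxanthine replicate 1 or 3 (up to 0.0565). The other 4 did not pass. Rrs1, which helps to bring in the 5S particle, differed by -0.40 (adjusted p = 0.0702) and the nucleolar protein gene Rrp1b by -0.25 (adjusted p = 0.0779). The GTPase gene Gnl2 differed by -0.17 (adjusted p = 0.177) and Noc2l by -0.11 (adjusted p = 0.478).

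**Figure D2:**
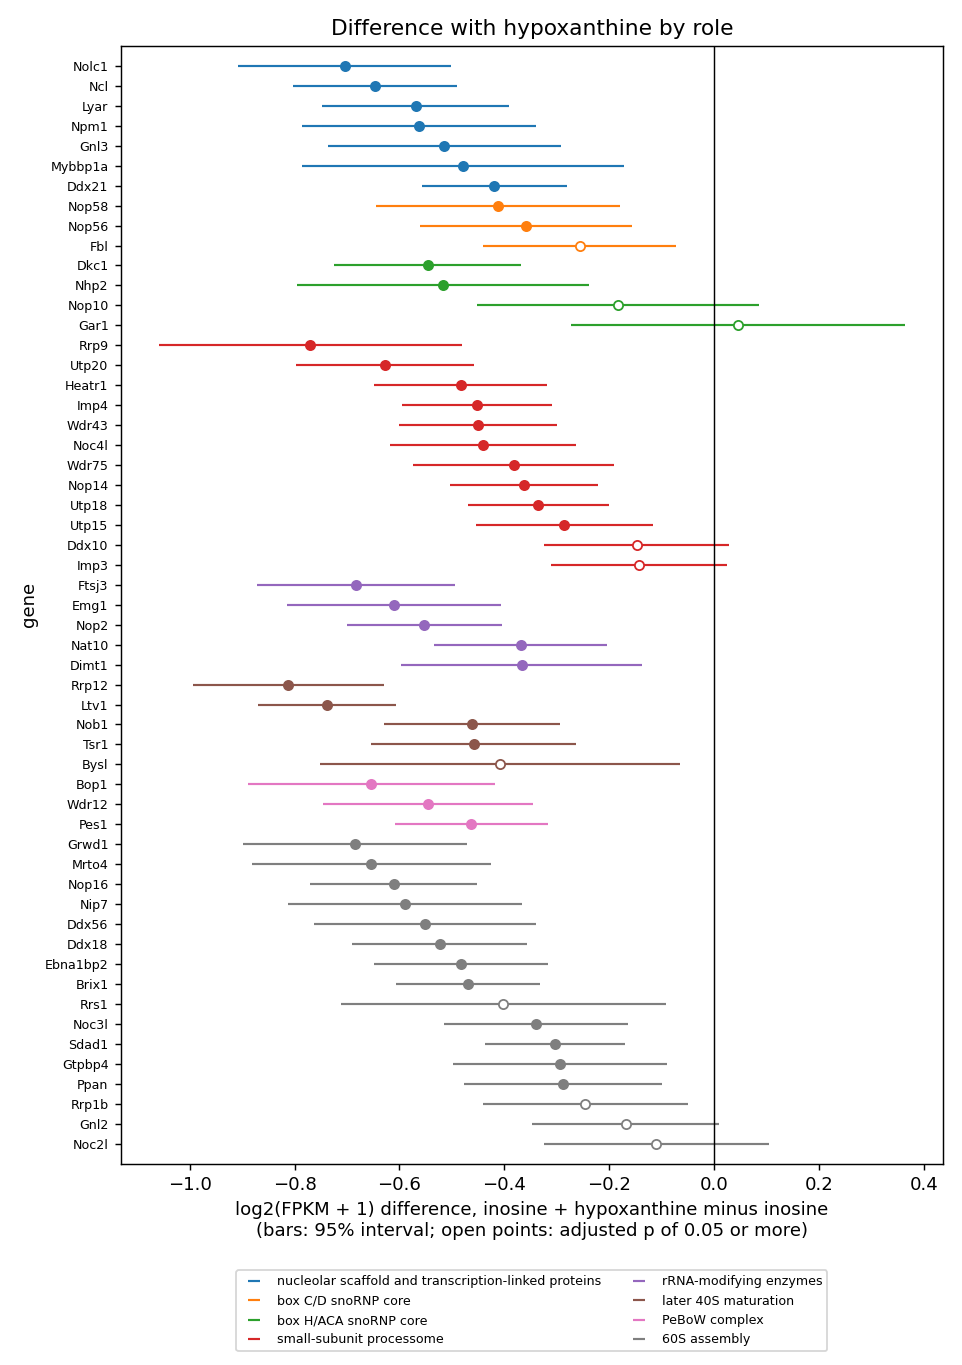
Difference of each of the 55 members between hypoxanthine and inosine, in log2(FPKM + 1), with its 95% interval, ordered within 8 roles; filled points passed at an adjusted p under 0.05 and open points did not. All but Gar1 lie below 0, and the 10 open points include 2 of the 4 box H/ACA proteins and 4 of the 16 factors of 60S assembly.

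The plot of member differences by role shows that all 8 roles hold members that fell. Across the 55 members, Pearson's r of the difference was -0.05 with the mean log2 FPKM, -0.06 with the GC content of the transcript and -0.1 with the log10 of its length. These are descriptions over genes of the same libraries. The 11 members with a CACGTG in the promoter window had a median difference of -0.46, and the 38 with a window and no CACGTG had -0.45.

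**Figure D3:**
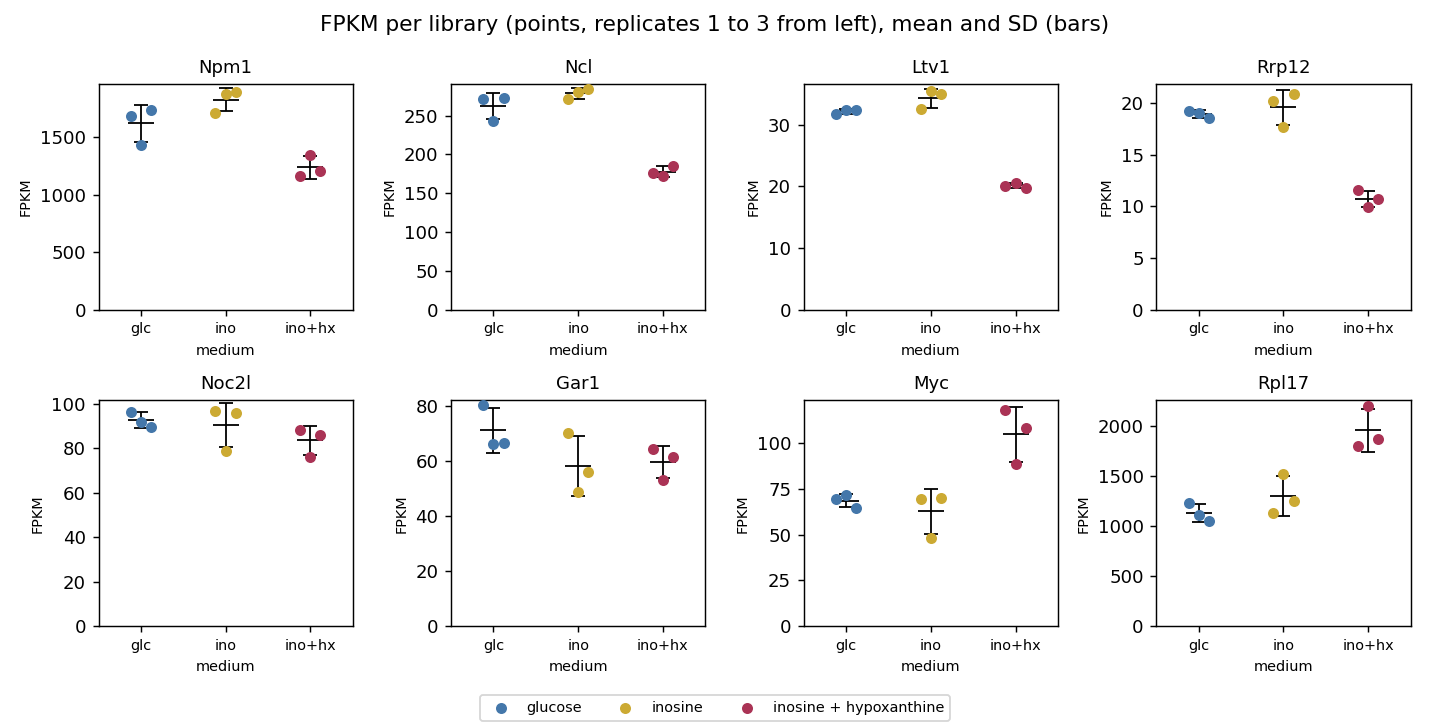
FPKM of 8 genes in each library (points) with the mean of each medium (lines), for the members Npm1, Ncl, Ltv1, Rrp12, Noc2l and Gar1 and, outside the members, Myc and Rpl17. Ltv1 and Rrp12 show hypoxanthine libraries well below the rest, Gar1 and Noc2l overlap with inosine, and Myc and Rpl17 are higher with hypoxanthine.

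Against glucose, 43 of the 55 members were lower with hypoxanthine, none was higher, and 12 did not pass. Over all genes 9.55% were called lower and 10.8% higher (21.9% and 11.1% at 10 FPKM or more). This comparison uses the same 3 hypoxanthine libraries as the one against inosine, so the counts are not independent. The median difference was -0.40, from -0.84 (Rrp9) to -0.04 (Gnl2), and the median member was 24.7% lower. In 49 members the libraries did not overlap, as for 17.8% of all genes (37.4% at 10 FPKM or more). Ltv1 differed from glucose by -0.65 (SE 0.06, adjusted p = 0.00017) and from inosine by -0.74. Ncl differed by -0.56 from glucose and -0.65 from inosine, and Rrp12 by -0.77 and -0.81. Fbl passed here, at -0.41 (SE 0.08, adjusted p = 0.00832). Npm1 passed too, at -0.38 (SE 0.10, adjusted p = 0.0244), but not without glucose replicate 1 or 3 or hypoxanthine replicate 1 or 3 (0.0794 to 0.0929). Bysl, Rrs1 and Rrp1b, which had not passed against inosine, were lower at -0.60, -0.49 and -0.37, and their values against inosine were -0.41, -0.40 and -0.25. Leaving out 1 glucose or hypoxanthine library ended the calls of Bysl, Rrs1, Rrp1b, Npm1, Nop56, Mybbp1a, Heatr1, Nob1, Wdr12, Nip7, Ppan or Sdad1, with adjusted p of 0.0503 to 0.113 over the settings that ended them.

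The 12 that did not pass against glucose came from several roles. Nop58 (-0.28, adjusted p = 0.0891), Nhp2 (-0.37, 0.0639), Wdr75 (-0.25, 0.0683) and Dimt1 (-0.32, 0.0589) missed the threshold narrowly, and each passed under some of the other settings. Noc3l (-0.20, 0.102) and Gtpbp4 (-0.14, 0.342) complete the 6 members called against inosine and not against glucose. With limma, neither comparison called Noc2l, Imp3, Ddx10, Gnl2, Nop10 or Gar1. Against glucose these 6 differed by -0.15, -0.04, -0.08, -0.04, -0.12 and -0.25. For Gar1 the 3 hypoxanthine libraries lay below the 3 of glucose, while those of inosine reached from below them to above. The 4 members Fbl, Bysl, Rrs1 and Rrp1b were called against glucose and not against inosine. The difference between the 2 comparisons is that of inosine from glucose, which called none of the 55.

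Inosine in place of glucose changed no member past the threshold. Limma called 0 of 55 in either direction, as did limma voom on recovered reads, and 0.00485% of all genes were called in each direction. One member, Wdr12, had an unadjusted p under 0.05 (0.0486), with a log2 difference of 0.20. Differences ran from -0.29 (Gar1) to 0.20 (Wdr12), with a median of 0.05. The 95% intervals of 53 members lay within 0.5 of 0 on the log2 scale, and the exceptions were Gar1 (-0.61 to 0.02) and Bysl (-0.54 to 0.15). In 4 members (Ltv1, Heatr1, Wdr12 and Nip7) all 3 inosine libraries were above all 3 glucose libraries, and in none were they all below. Over all genes, libraries separated that way in 2.23% (higher) and 2.83% (lower), and at 10 FPKM or more in 1.51% and 3.99%.

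The authors' deposited table of hypoxanthine against inosine, read as hypoxanthine minus inosine, called 49 of 55 members lower at their adjusted p under 0.05 and 0 higher, with a median log2 of -0.52, where 11.6% of its genes were called lower. In the authors' deposited table for hypoxanthine against glucose the counts were also 49 and 0, with a median of -0.43 and 13.8% of genes lower. Some members that limma did not call were lower by the authors' adjusted p. Against inosine these were Fbl, Bysl, Rrs1 and Rrp1b (0.00491 to 0.0124). Against glucose they were Gar1, Nop58, Nhp2, Wdr75, Dimt1 and Noc3l (0.00168 to 0.0326). The authors' deposited table for inosine against glucose called no member in either direction, and 0.00506% of its genes lower.

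The members are part of a wider set of assembly factors. Of 94 other genes for ribosome assembly 55 were lower with hypoxanthine than with inosine and 2 were higher, with a median of -0.31. Over all genes 9.59% were lower and 11.7% higher (22.3% and 12.7% at 10 FPKM or more). Against glucose 49 of the 94 were lower and 1 higher, with a median of -0.30. There 9.55% of all genes were lower and 10.8% higher (21.9% and 11.1% at 10 FPKM or more). The count of 55 was 36 without inosine replicate 3, and that of 49 was 31 without hypoxanthine replicate 3. Of 32 other processome genes 23 fell, none rose, and the median was -0.40. Without inosine replicate 3 or hypoxanthine replicate 3 the number was 13, and without hypoxanthine replicate 1 it was 14. Pno1, a KH-domain protein that stays on the 40S precursor, stood at 57.0, 50.6 and 56.9 FPKM in glucose, 57.5, 58.1 and 58.0 with inosine and 30.8, 33.0 and 30.1 with hypoxanthine. This is a log2 difference of -0.87 (SE 0.07, adjusted p = 8.4e-05) and lies outside the range of the members. Utp4 differed by -0.55, and the more abundant Utp11 by -0.21 (adjusted p = 0.198) and Fcf1 by -0.12 (adjusted p = 0.56).

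In the same comparison with inosine, 9.59% of all genes were called lower and 11.7% higher (22.3% and 12.7% at 10 FPKM or more). Of 34 other genes of 60S assembly 19 fell (12 without inosine replicate 3) and 1 rose. Rrp15 (-0.71), Ddx31 (-0.50) and Rsl1d1 (-0.49) were among those that fell. The gene that rose was Nop53, which helps the exosome onto the 60S precursor, with 128, 92.0 and 116 FPKM on inosine and 181, 140.3 and 170.3 with hypoxanthine (log2 0.55, SE 0.14, adjusted p = 0.021). Its call was lost without hypoxanthine replicate 1 or 3 or inosine replicate 3 (up to 0.0803). Of 7 other late 40S genes 4 fell, with Tsr2 at -0.66, Riok2 at -0.48, Bud23 at -0.39 and its partner Trmt112 at 0.06 (adjusted p = 0.762). Of 13 genes of the exosome and rRNA trimming 6 fell and 1, Exosc5, rose (named after its values were seen). Both rises, of Nop53 and Exosc5, lost their calls without hypoxanthine replicate 1 or 3 or inosine replicate 3. The exosome subunits Exosc2 (-0.58) and Exosc7 (-0.46) fell, and Exosc8 differed by -0.19 (adjusted p = 0.227). Of 8 snoRNP assembly factors 3 fell: Znhit3 (-0.61), Ruvbl1 (-0.40) and Ruvbl2 (-0.47), the last losing its call without hypoxanthine replicate 2 or 3 or inosine replicate 1 or 3 (up to 0.0811).

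RNA polymerase I makes the precursor on which the members act. Of 16 genes of its subunits and factors 4 were lower with hypoxanthine than with inosine and none was higher, with a median of -0.10. This is near the background, since 22.3% of all genes at 10 FPKM or more were called lower, so it is no result about these genes. Without inosine replicate 3, hypoxanthine replicate 1 or hypoxanthine replicate 3 the count was 2. The initiation factor gene Rrn3 (-0.42, adjusted p = 0.00155) and the largest subunit Polr1a (-0.42, adjusted p = 0.0126) fell. Polr1d differed by -0.31 (adjusted p = 0.0512) and Polr1c by -0.08 (adjusted p = 0.456).

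**Figure D4:**
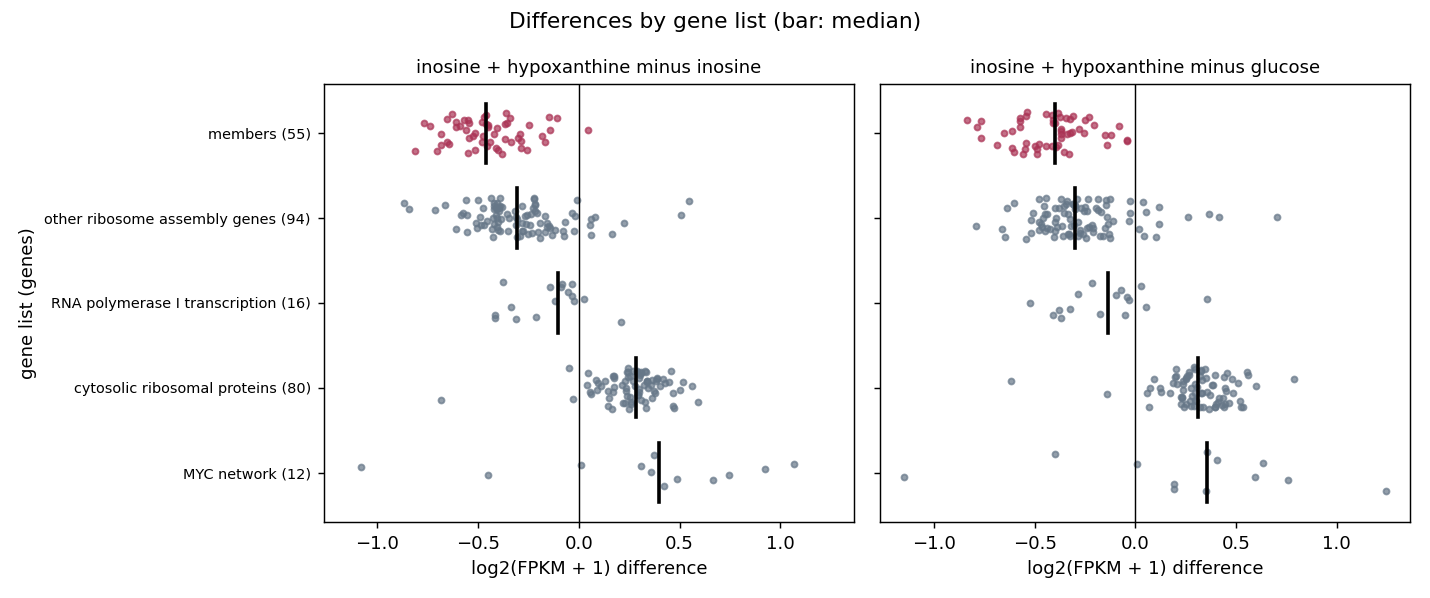
Log2(FPKM + 1) difference of each gene (points) with the median (line) for the 55 members, 94 other ribosome assembly genes, 16 genes of RNA polymerase I transcription, 80 cytosolic ribosomal proteins and 12 genes of the MYC network, for hypoxanthine against inosine and against glucose. Against inosine the medians are -0.46, -0.31, -0.10, 0.28 and 0.40.

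As the plot of gene lists shows, the medians of the ribosomal proteins and of the MYC network were above 0 against inosine, where that of the members was below. Single genes of both lists were below 0, 3 of the 80 ribosomal proteins and 2 of the 12 network genes. The network list mixes Myc and its partner Max with antagonists such as Mxd4, so its median does not measure the activity of MYC. Myc itself stood at 69.5, 48.5 and 70.1 FPKM with inosine, 117.9, 88.5 and 108.4 with hypoxanthine and 69.5, 71.8 and 64.7 in glucose. Its lowest hypoxanthine library was above every library of the other media, with a log2 difference of 0.74 (SE 0.15, adjusted p = 0.00956) from inosine and 0.60 (adjusted p = 0.0256) from glucose. The call against glucose was lost without any glucose library or hypoxanthine replicate 1 or 3 (up to 0.0901). Of the 12 network genes 6 rose and 2 fell against inosine, where 11.7% of all genes were called higher and 9.59% lower. At 10 FPKM or more the shares were 12.7% and 22.3%. The count of falls lies between the shares called lower, so it is no result about the list. Max differed by 0.49, the antagonist Mxd4 by 1.07 and the paralogue Mycn by -1.08 (4.06, 3.70 and 4.30 FPKM with hypoxanthine against 10.2, 8.58 and 10.2).

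Of 80 genes for cytosolic ribosomal proteins, the parts that the members assemble, 18 were higher with hypoxanthine than with inosine and 1 lower, with a median of 0.28, where 12.7% of all genes at 10 FPKM or more were called higher. Rpl17 (0.59, adjusted p = 0.0109) rose, and the abundant Rplp1 (0.17, adjusted p = 0.325) and Rpl41 (0.06, adjusted p = 0.827) did not pass. Rps27l, a variant of a 40S protein and a known p53 target, was lower (-0.68, adjusted p = 0.0128), but not without hypoxanthine replicate 3 (0.0544). The count of 18 depends on single libraries. It was 1 without inosine replicate 3 and 4 without inosine replicate 1. Without hypoxanthine replicates 1, 2 and 3 in turn it was 8, 3 and 2. It was 11 without glucose replicate 3, 35 without inosine replicate 2, 5 with only these 2 media in the fit, and 3 after scaling by the median of ratios. Against glucose, with the same hypoxanthine libraries, 22 of the 80 were higher and 1 lower, with a median of 0.31. There 11.1% of genes at 10 FPKM or more were called higher. All 3 hypoxanthine libraries lay above all 3 of glucose in 65 of the 80 and below them in 2. For genes at 10 FPKM or more these shares were 20% and 37.4%. Fewer separated from inosine: 33 of the 80 lay above and 1 below, where the shares at 10 FPKM or more were 18.8% and 30.9%. Reads of ribosomal protein genes can be shared with processed pseudogenes, which limits these values.

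**Figure D5:**
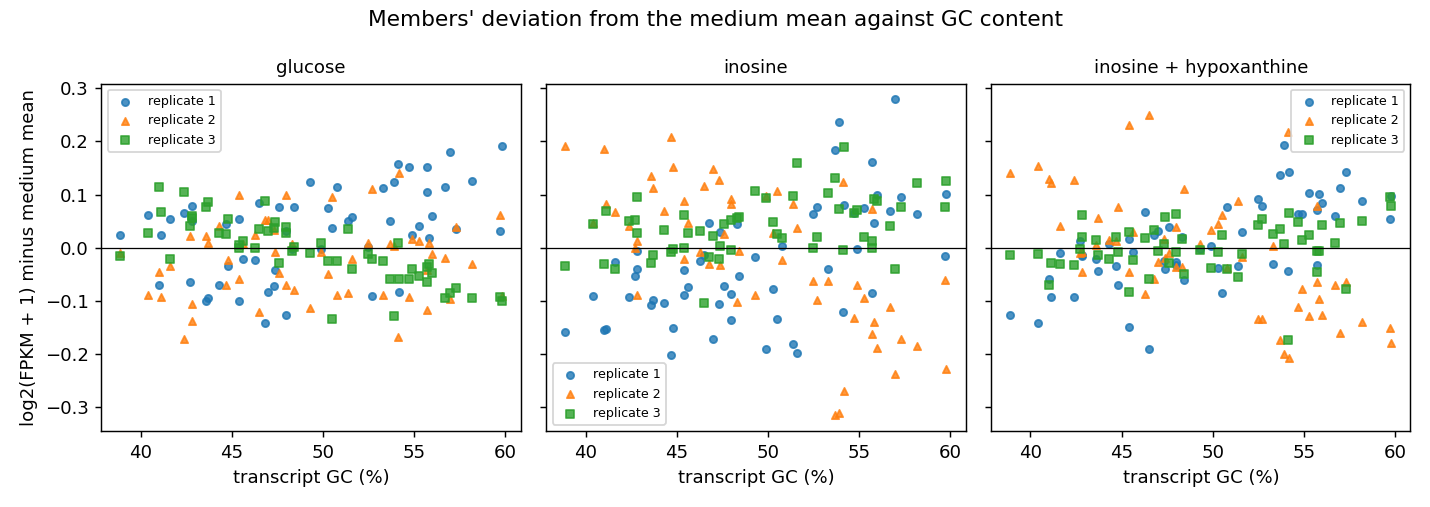
Deviation of each of the 55 members from the mean of its medium, in log2(FPKM + 1), against the GC content of its transcript in percent. Each medium has 1 panel, with its 3 replicates as different markers. Slopes run down in glucose replicate 3, inosine replicate 2 and hypoxanthine replicate 2 and up in hypoxanthine replicate 1 and inosine replicate 1.

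Replicates of a medium differed among themselves along the GC content of transcripts, over all genes as well as the members. That of the members ran from 38.9% to 59.8%. Across the 55 members, the deviation of a library from the mean of its medium had a Pearson's r with GC content of -0.78 in glucose replicate 3, -0.68 in inosine replicate 2 and -0.62 in hypoxanthine replicate 2. It was 0.68 in hypoxanthine replicate 1, 0.60 in inosine replicate 1 and 0.47 in glucose replicate 1, and 0.10 to 0.42 in the other 3 libraries. Over 9378 genes the same measure was -0.58 in glucose replicate 3, -0.43 in inosine replicate 2, -0.44 in hypoxanthine replicate 2 and 0.46 in hypoxanthine replicate 1, so the pattern is not particular to the members. These values describe members of single libraries, as drawn in the panels of deviation against GC content. The members' differences themselves had an r with GC content of -0.06 for hypoxanthine against inosine, -0.39 for hypoxanthine against glucose and -0.59 for inosine against glucose. Inosine replicate 2 and hypoxanthine replicate 2 are also the 2 libraries with the highest mitochondrial share. Without both, 43 members were lower than with inosine and 47 lower than in glucose, and none was higher.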

How the data were processed

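Libraries were prepared from sorted live CD8+ T cells and sequenced in paired-end mode, per the labels' protocols. HISAT2, featureCounts, Subread 2.0.1, DESeq2 1.38.3 and mm10 are named per the submitters' processing notes, which do not give the role of each, and the strand is not given in the sources used here. FPKM of every gene in every library were deposited, as the authors scaled them for length and library size. A signal column deposited beside them is the authors' mean over the 3 libraries of a medium of read counts divided by size factors. The log2 fold changes and the p-values in the same tables are the authors' own, and in the hypoxanthine tables the authors' sign is control minus hypoxanthine, turned here.

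The test was limma 3.58.1 (R 4.3.3, trend and robust) on log2(FPKM + 1) of 20618 genes, with 1 mean for each medium fitted to the 9 libraries together. Calls were made at an adjusted p (Benjamini-Hochberg, all genes) under 0.05, with no filter. A fold on this scale understates the change of low genes. Whole reads per library were recovered from the authors' pairs of group means (99.8% of genes with 1 solution, 20542 genes within 0.0005 of whole numbers) and used for depth and limma voom. The count model was an alternative.

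The members, gene lists, tests and named genes were chosen with earlier results of these data known. Library values are given for the 2 members of each role with the smallest adjusted p against inosine, for Npm1, Ncl and Fbl, and for the members of largest and smallest difference. Of other lists, the 2 genes with the smallest adjusted p and the 2 of highest mean FPKM are named, with Myc. Tables were joined by symbol. Promoters and gene coordinates are from RefSeq (GRCm38.p6), and GC content and transcript length from GENCODE (GRCm38). The alternatives were 18 other settings, of which the one without the 2 libraries of highest mitochondrial share was added after seeing the data.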

Additional observations from a re-analysis of the deposited data

How the results depend on the processing

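Over the 18 alternative settings the members lower than with inosine numbered 35 to 44 when 1 library was left out and 40 to 49 otherwise, against 45 in the fit reported. The members lower than in glucose numbered 35 to 46 and 42 to 47, against 43. No member was called higher in either comparison, and none was called between inosine and glucose, under any of these settings. For 35 of the 45 and 31 of the 43 the call held in all 18. With 1 library left out, all genes called lower against inosine numbered 1215 to 2023 and higher 1542 to 2464. Against glucose they numbered 1213 to 2349 and 1464 to 2530. Between inosine and glucose, 1 to 4 genes were lower and 0 to 6 higher with 1 library left out. The number of genes lower there was 0, from 1, under limma voom, limma with neither setting, a mean of at least 1 FPKM, only the 2 media in the fit, and without the 2 libraries of highest mitochondrial share. The number higher was 0, from 1, under the first 4 of these, a pseudocount of 10 and the replicate block. The cause was not tested. With the 1-letter variants, 30 members held a promoter match, against 11.

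The labels do not say that a replicate number marks a shared source. Deviations of same-numbered libraries correlated at 0.411, 0.635 and 0.018 between inosine and hypoxanthine, and at -0.27 to 0.404 in the pairs with glucose. Not every library correlated best with its own number (inosine replicate 3 reached 0.388 with hypoxanthine replicate 1), so pairing was not established, and it was not excluded. With a replicate block, 45 members were lower than with inosine, with Fbl and Bysl gaining and Ppan and Gtpbp4 losing their calls. Against glucose 44 were lower, with Dimt1 added, and 0 changed between inosine and glucose. Groups of 3 libraries limit the precision, and a member that did not pass is not shown to be equal between media.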
